A study of Caenorhabditis elegans with 2 samples.

Results

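The genes nhr-23 and nhr-25 encode nuclear receptors required for molting in Caenorhabditis elegans, and their loci were examined for candidate sites of BLMP-1, a zinc finger transcription factor and homologue of vertebrate PRDM1. The sites came from ChIP-seq of eGFP-tagged BLMP-1 in whole embryos of mixed stage, both sexes together, from strain OP109 (unc-119(ed3) III; wgIs109), in which the tagged blmp-1 is an integrated transgene. There was 1 group of 2 biological replicates and no second condition, so every value below is a description and no test was made. The members were found by gene symbol among 19985 protein-coding genes of the annotation, as 2 genes with every listed region whose summit lay in the gene body or within 5000 bp upstream of its start. This gave 60 of 90843 lines over the 4 lists of build ce11, of which 25 lay at nhr-23 and 35 at nhr-25. The authors' IDR list (irreproducible discovery rate) held 3 of these lines of its 843, the pooled candidate list 21, the replicate 1 list 17 and the replicate 2 list 19, each candidate list being 30000 lines long.

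NHR-23 is the counterpart of insect DHR3 and the vertebrate ROR receptors. NHR-25 is the counterpart of insect Ftz-F1 and of vertebrate SF-1 and LRH-1. In insects these receptors act in sequence in the response to the molting hormone ecdysone, and in C. elegans both are expressed in the epidermis and are needed for the larval molts, in which an old cuticle is shed and a new one is made. NHR-25 also acts in the embryo and in the seam cells. BLMP-1 acts in the larval epidermis on the timing of gene expression over the molting cycle.

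Signal values are the authors' own score for each region, on a scale that the files do not state, so they are set side by side only within a list. Each region is also given by its rank in its list, where rank 1 is the highest signal. The 843 IDR peaks are the 843 highest regions of the pooled list. No list gives read counts, and the depth behind a rank is unknown. In whole embryos, fewer bound cells and less binding per cell cannot be told apart.

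The nhr-23 locus had a single IDR peak, and it ranked high in every list. nhr-23 (WBGene00003622) lies on the plus strand of chromosome I from 7214745 to 7221299, with 6 annotated transcripts that begin at 6 different positions. The peak ran from 7212055 to 7212207 with its summit at 7212129, 2616 bp upstream of the gene start. Its signal was 152 in the pooled list, at rank 75.

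The same place stood out in both replicates. In replicate 1 the summit lay at 7212135, with signal 82.6 and rank 106. In replicate 2 it lay at 7212134, with signal 76.8 and rank 48. The 3 summits thus fell within 6 bp of each other. A strongest region at least this high was found at 0.505% of protein-coding genes in the pooled list, 0.716% in replicate 1 and 0.305% in replicate 2. These shares count nhr-23 itself and C01H6.3, C01H6.4 and mlt-2, whose windows hold the same peak.

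This peak is not next to nhr-23 alone. Its summit lay in a coding exon of the upstream neighbour C01H6.4, the last exon of both transcripts of that gene (7212082 to 7212522). Coding exons held 2.32% of the 818 nuclear IDR summits, against 12.1% of the 29974 nuclear pooled summits. The peak also lay in the windows of C01H6.3, C01H6.4 and mlt-2 when these were drawn in the same way. The start of C01H6.4 was the nearest, at 1858 bp, then that of C01H6.3 at 2263 bp, and that of nhr-23 came next, at 2616 bp. Which of the 4 genes the site serves was not tested. The region was 153 bp wide, and 9.02% of IDR regions were this narrow or narrower.

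Within the nhr-23 gene body no region reached the IDR list, though 7 pooled candidates lay there. The strongest had its summit at 7217358 in an intron, 2613 bp past the gene start, with signal 44.1 and rank 925, just under the lowest IDR signal of 46.1. Its match in replicate 1 ranked 898 (signal 29.0), and its match in replicate 2 ranked 382 (signal 29.5) with a summit 149 bp further downstream. This is the region closest to the IDR list without being in it.

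The next was another intron summit at 7216375, with signal 40.0 and rank 1113 in the pooled list. Its overlapping region ranked 1333 in replicate 1 (signal 24.99) but 14167 in replicate 2 (signal 7.70), where the summit lay 282 bp away. It lay 409 bp upstream of the start of transcript C01H6.5a.1. The replicates thus differed at this site far more than at the IDR peak.

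The other 5 pooled regions in the gene body ranked between 5979 and 14792. Summits at 7215716 and 7218571, both in introns, ranked 6702 and 5979 and had a match in replicate 1 alone, at 3356 and 3229. The region at 7219499, in an exon, had a match in replicate 2 alone, at rank 2196. The region at 7221145 lay in the 3′ UTR (rank 9317) and matched replicate 1 alone, at rank 5200.

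At the gene start itself the signal was low in the pooled list. The summit at 7214831, 86 bp past the start of transcript C01H6.5c.1 and in its 5′ UTR exon, had signal 17.9 and rank 11515. Replicate 2 ranked the overlapping region 1200 and replicate 1 ranked it 15356. A further upstream region at 7213509, 1236 bp before the start and in no gene, ranked 13619 in the pooled list, 13619 in replicate 1 and 3120 in replicate 2.

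The nhr-25 locus had 2 IDR peaks inside the gene and a stronger one just beyond the upstream limit of the window. nhr-25 (WBGene00003623) lies on the plus strand of chromosome X from 13008493 to 13013964 and has 3 annotated transcripts with different starts. Both IDR peaks in the gene lay in introns near the 5′ end, 795 bp apart. No other protein-coding gene's window held either of them, and the next nearest protein-coding start, that of vwa-8, was 17572 bp from the first.

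The stronger peak in the gene ran from 13008884 to 13009199, with its summit at 13009042, signal 71.4 and pooled rank 348. The summit lay in the first intron of transcript F11C1.6a.1 and the second of F11C1.6a.2, 156 bp past the start of F11C1.6a.1 and 224 bp before that of F11C1.6b.1. It also lay in F11C1.11, a noncoding RNA gene on the opposite strand.

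The replicates placed this peak very differently. In replicate 1 its match had signal 63.5 and rank 182, the strongest region of the window in that replicate. In replicate 2 its match had signal 7.34 and rank 15512, although the summits lay only 16 bp apart. Of the 843 IDR peaks, 38 (4.51%) ranked this low or lower in replicate 2 or were absent from it, and 25 of these were absent.

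Replicate 2 instead had a region at 13008673, 180 bp past the gene start, with signal 20.8 and rank 938. It did not overlap the IDR peak. The overlapping regions ranked 23549 in replicate 1 and 28648 in the pooled list. The order of the sites around the start of nhr-25 was therefore not shared by the replicates.

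The second peak in the gene was high in both replicates. It ran from 13009679 to 13009994 with its summit at 13009837, signal 57.3 and pooled rank 548. Its match in replicate 1 had signal 47.7 and rank 332, and its match in replicate 2 had signal 32.9 and rank 289, the strongest region of the window in that replicate. The summit lay in the third intron of F11C1.6a.1 and in F11C1.16, another noncoding RNA gene on the opposite strand.

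The strongest IDR peak near nhr-25 did not meet the rule, by 171 bp. It ran from 13003164 to 13003479, and its summit at 13003322 lay 5171 bp upstream of the gene start, in no annotated gene. Its pooled signal was 130 at rank 103, with rank 128 in replicate 1 (signal 74.7) and rank 96 in replicate 2 (signal 55.6). The most upstream pooled region inside the window, at 13004104, had signal 16.1 and rank 15287. The replicate 1 list also held a line inside the window at 13003506, of rank 28224 and signal 8.06, that overlaps this outer peak's regions in the other lists.

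Outside the IDR list, 2 upstream regions of nhr-25 came nearest to it. The summit at 13007966, 527 bp upstream of the gene start, had signal 41.7 and pooled rank 1033. Its matches ranked 1429 in replicate 1 (signal 24.3) and 5027 in replicate 2 (signal 11.8). The summit at 13004922, 3571 bp upstream, had signal 35.96 and rank 1433, with matches of rank 2269 in replicate 1 and 2102 in replicate 2. Their summits lay 212 and 186 bp from it, on opposite sides, and replicate 2 had a further overlapping region of rank 5476 at 13004949.

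The remaining 8 pooled regions of nhr-25 were weak, with ranks from 13360 to 28648. Of these, 6 lay upstream. The others were a summit 20 bp past the gene start in a 5′ UTR exon, of signal 11.7 and rank 28648, and a summit at 13011521 in an intron, of signal 15.5 and rank 16568. The start of the longest transcript, F11C1.6a.2, was thus next to the weakest pooled region of the window.

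**Figure D1:**
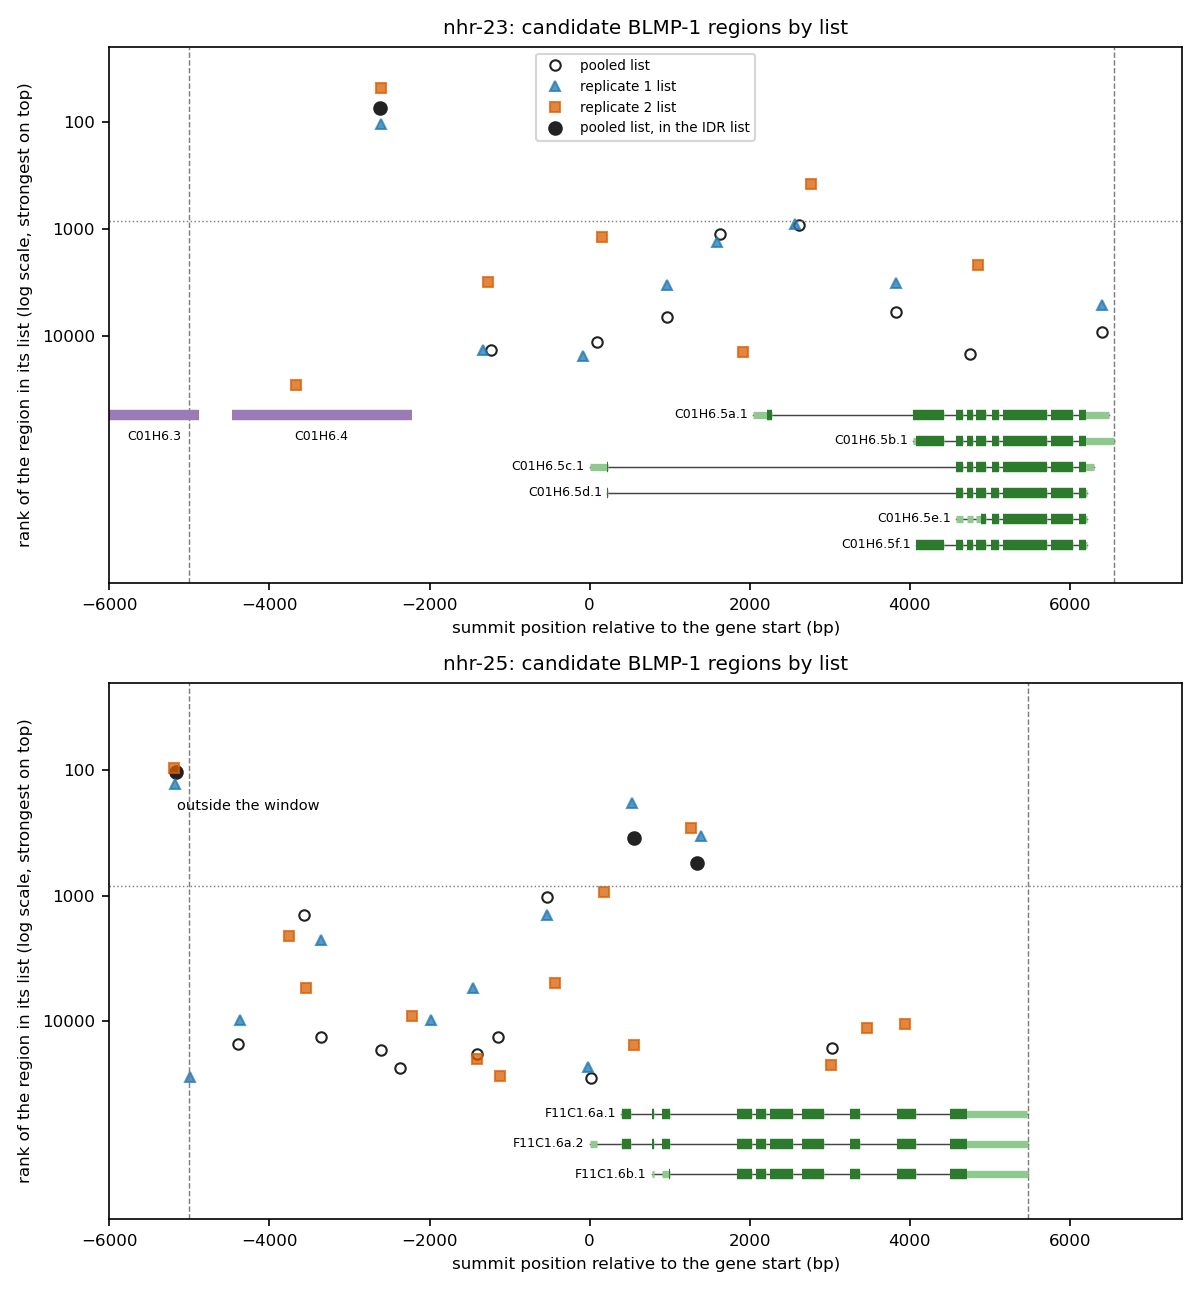
Rank of each candidate region (y axis, log scale, strongest on top) against the position of its summit relative to the gene start in bp (x axis), for nhr-23 above and nhr-25 below. Filled circles are IDR peaks, open circles other pooled regions, triangles replicate 1 and squares replicate 2; dashed lines bound the window, the dotted line is rank 843, transcripts are green with coding exons dark, and neighbouring genes are purple. The IDR, pooled and replicate lists place a region of rank 106 or better 2610 to 2616 bp upstream of nhr-23, while at nhr-25 the region of rank 348 in the pooled list ranked 182 in replicate 1 and 15512 in replicate 2, and the points of ranks 96 to 128 lie outside the window.

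The sequences at the summits are given for the stronger pooled regions of nhr-25 and for the peak just outside its window. Whether the sequences bear on the ranks was not tested. Each line is the plus strand of ce11 from 50 bp before to 50 bp after a pooled summit, read from the RefSeq genome WBcel235, with matches to the searched sequences in capitals. The search covered both strands for 5 sequences. These were AAGTGAAA, known as the PRDM1-type core of BLMP-1, its last 7 letters AGTGAAA, the GA repeat GAGAGA, the extended half-site AAGGTCA of the Ftz-F1 class to which NHR-25 belongs, and within it AGGTCA, the half-site common to many nuclear receptors.
Outside the window, rank 103, chrX:13003272-13003372: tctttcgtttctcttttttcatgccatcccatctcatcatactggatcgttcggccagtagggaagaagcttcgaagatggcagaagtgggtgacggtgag
Upstream, rank 1433, chrX:13004872-13004972: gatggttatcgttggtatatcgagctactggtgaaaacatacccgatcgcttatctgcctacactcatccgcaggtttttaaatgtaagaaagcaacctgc
Upstream, rank 1033, chrX:13007916-13008016: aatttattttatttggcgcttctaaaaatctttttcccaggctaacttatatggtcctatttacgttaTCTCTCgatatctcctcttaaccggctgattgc
Intron, IDR peak of rank 348, chrX:13008992-13009092: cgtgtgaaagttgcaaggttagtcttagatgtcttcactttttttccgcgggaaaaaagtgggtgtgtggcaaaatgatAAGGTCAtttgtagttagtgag
Intron, IDR peak of rank 548, chrX:13009787-13009887: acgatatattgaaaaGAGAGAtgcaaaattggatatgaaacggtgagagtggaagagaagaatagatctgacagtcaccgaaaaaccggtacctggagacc

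None of the 21 pooled regions of the 2 genes had the BLMP-1 core within 50 bp of its summit, the 3 IDR peaks included. Over all nuclear pooled regions 2.23% had it, and over the nuclear IDR peaks 15.5% did. Widening the search to 150 bp added no match. The shorter core of 7 letters was at 1 region, the nhr-23 intron summit of pooled rank 1113, against 4.55% of nuclear pooled regions. In the whole 10472 bp window of nhr-25 the 8-letter core occurred once, in the gene body from 13013363 to 13013370, 1842 bp from the nearest pooled summit. The 11555 bp window of nhr-23 held none, and the nuclear genome held 0.137 sites per kb. The lack of these letters does not show that BLMP-1 was absent, since most nuclear IDR peaks lacked the 8-letter core too.

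The GA repeat was at 2 of the 9 pooled regions of nhr-23 and 3 of the 12 of nhr-25, against 7.67% of nuclear pooled regions and 30.6% of nuclear IDR peaks. Within 100 bp the counts were 4 at nhr-23 and 3 at nhr-25, against 13.7% of nuclear pooled regions. Within 50 bp, those of nhr-23 were the intron summit of rank 925 and the 5′ UTR summit of rank 11515. Those of nhr-25 were the IDR peak of rank 548, the upstream region of rank 1033 and the 5′ UTR summit of rank 28648. In the rank 548 peak the match stood 30 bases before the summit. The windows as a whole held 1.91 GA repeat sites per kb at nhr-25 and 0.865 at nhr-23, against 0.752 per kb over the nuclear genome.

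The half-site of the Ftz-F1 class lay at the nhr-25 IDR peak of rank 348, from 13009071 to 13009077, 29 bases after the summit. It was at 0.801% of nuclear pooled regions and at 0.611% of nuclear IDR peaks, which is 5 of them. The weak upstream region of nhr-23 at rank 13619 also had it. The shorter receptor half-site was at these same 2 regions and at no other of the 21, against 2.40% of nuclear pooled regions and 4.28% of nuclear IDR peaks. The windows as a whole held 0.260 sites per kb of the Ftz-F1 class half-site at nhr-23 and 0.0955 at nhr-25. The nuclear genome held 0.0775 per kb. These are matches of letters, not measured sites of a receptor.

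Listed regions were dense at both genes, and more so at nhr-25, but the pooled list was deposited as peaks together with background. At nhr-23 the pooled regions of rank 5979 and weaker had −log10 q from 0.242 to 0.602. At nhr-25 those of rank 13360 and weaker had −log10 q from 0.0968 to 0.272. All of them are counted here, so the density is one of listed regions and not of bound sites. The pooled list held 0.779 regions per kb of the nhr-23 window and 1.15 per kb of the nhr-25 window, against a median of 0.273 over all protein-coding genes. Overlapping regions were counted singly. At nhr-25 those with summits at 13004922 and 13005137, at 13005887 and 13006126, and at 13007080 and 13007347 overlapped each other. No pooled regions of nhr-23 did, so part of the difference between the 2 genes comes from such pairs. At least 9 pooled regions, the number at nhr-23, were found at 2.01% of genes, and at least 12, the number at nhr-25, at 0.731%. An IDR summit lay in the same kind of window at 6.27% of protein-coding genes, and 2 or more, as at nhr-25, at 0.655%. Long windows hold more: among the 675 genes with windows between those of nhr-25 and nhr-23 in length, the median count was 3 pooled regions and 8.59% had an IDR summit. The strongest region in the nhr-25 window was matched or exceeded at 2.54% of genes in the pooled list, 1.20% in replicate 1 and 2.20% in replicate 2.

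Each of the 3 IDR peaks had a match in both replicates, which at the nhr-25 peak of rank 348 was weak in replicate 2. Of the 9 pooled regions of nhr-23, 5 overlapped a candidate in both replicates by at least 1 bp, 3 in replicate 1 alone and 1 in replicate 2 alone. Of the 12 at nhr-25, 8 did so in both, 1 in replicate 1 alone, 2 in replicate 2 alone and 1 in neither. Over the whole pooled list 26.3% overlapped a candidate in both, and over the IDR list 96.0%. Neighbouring pooled regions at nhr-25 can overlap the same replicate region, as those at 13007080 and 13007347 do. With summits within 100 bp of each other as the measure, 2 regions of nhr-23 and 4 of nhr-25 were in both replicates, against 13.9% of the whole pooled list and 89.2% of the IDR list. By rank, 1 region of nhr-23 and 2 of nhr-25 were among the 843 strongest of replicate 1, and 2 of nhr-23 and 1 of nhr-25 among those of replicate 2. At least 1 such region was found at 6.01% of protein-coding genes in replicate 1 and 6.39% in replicate 2, and at least 2 at 0.681% in replicate 1 and 0.590% in replicate 2.

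**Figure D2:**
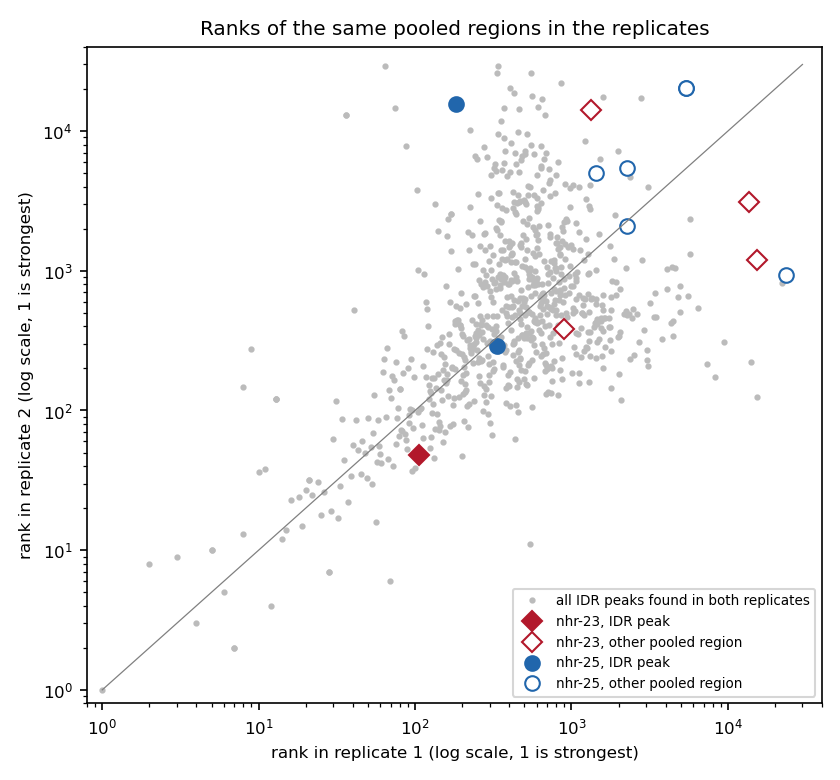
Rank in replicate 2 (y axis) against rank in replicate 1 (x axis), both on log scales with 1 as the strongest, for the pooled regions of nhr-23 (red diamonds) and nhr-25 (blue circles) that overlap a candidate in both replicates; filled symbols are IDR peaks and grey points the 809 IDR peaks of the whole list with a match in both. The nhr-23 peak (106 and 48) and the nhr-25 peak of pooled rank 548 (332 and 289) lie near the diagonal, and the nhr-25 peak of pooled rank 348 (182 and 15512) lies far above it.

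Other genes of the molting cycle were read in the same window of 5000 bp upstream to the gene end. Of 7 genes for regulators of that cycle, 4 had an IDR summit, against 6.27% of all protein-coding genes. The median window of this list was 11922 bp long, against 7026 bp over all genes. The best pooled ranks were 99 at nhr-85, the gene for the counterpart of insect E75 and vertebrate Rev-erb, 261 at grh-1, which encodes Grainyhead, 623 at lin-42, the Period homologue, and 819 at myrf-1, which encodes a membrane-bound transcription factor. The summits lay 3897 bp upstream of nhr-85, 1007 bp upstream of grh-1, and in introns of lin-42 and myrf-1. The best region of myrf-1 ranked 1025 in replicate 1 and 4089 in replicate 2, while those of nhr-85, grh-1 and lin-42 ranked 560 or better in both. The remaining 3 had no IDR summit. The best pooled rank was 3327 at bed-3, a zinc finger gene, and 10097 at myrf-2. The window of blmp-1 held no region in the pooled list or in either replicate list. The tagged blmp-1 of this strain is an integrated transgene, and whether that bears on the lack of a region at blmp-1 was not tested. The median best pooled rank of the 6 with a region was 721, against 7366.5 over all genes with one, while nhr-23 stood at 75 and nhr-25 at 348.

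Among 13 further nuclear receptor genes with insect or vertebrate counterparts, 5 had an IDR summit in the window, against 6.27% of all protein-coding genes. nhr-91, the counterpart of insect DHR4 and vertebrate GCNF, was the highest, at pooled rank 10 and ranks 14 and 12 in replicates 1 and 2. nhr-85 stood at 99 and daf-12, a hormone receptor gene of developmental timing, at 246. sex-1 stood at 391, and unc-55, the COUP-TF counterpart, at 723, a region that ranked 216 in replicate 1 and overlapped no candidate of replicate 2.

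The pooled order over these receptors was thus nhr-91, nhr-23, nhr-85, daf-12, nhr-25, sex-1 and unc-55. It holds for windows from 5000 bp upstream. With 2000 bp upstream the best pooled rank of nhr-23 was 925, and with 10000 bp that of nhr-25 was 103. The peak counted for nhr-23 lay in the windows of 4 genes, nhr-23 among them. The neighbours in this order nhr-23 and nhr-85 had ranks of 106 and 104 in replicate 1 and 48 and 97 in replicate 2, so their order was not the same in both. The genes daf-12 and nhr-25, also next to each other, had best ranks in the window of 212 and 182 in replicate 1 and 575 and 289 in replicate 2, with nhr-25 the higher in each although it is the lower in the pooled list. Its best regions in the replicates are different sites, as described above. Against sex-1, with ranks of 635 in replicate 1 and 247 in replicate 2, nhr-25 was higher in replicate 1 and lower in replicate 2. The other 8 had best pooled ranks of 1203 at nhr-41, 1871 at nhr-64, 2273 at nhr-67, 3615 at nhr-8, 4475 at nhr-48, 4517 at fax-1, 4910 at nhr-69 and 24327 at nhr-6. The median of the 13 was 1871, and their median window was 10191 bp long, against 7026 bp over all genes.

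Of 23 genes listed as molting effectors, 6 had an IDR summit in the window, against 6.27% of all protein-coding genes. The median window of the list was 9445 bp long, against 7026 bp. One of the 6, mlt-2, is counted through the same peak as nhr-23, which lay 4412 bp upstream of the start of mlt-2. The others were noah-1 (best pooled rank 54), noah-2 (80), mlt-11 (135), qua-1 (212) and mlt-9 (610). The noah-1 summit lay 4921 bp upstream of its gene start, close to the limit of the window. The mlt-9 region ranked 1783 in replicate 1 and 265 in replicate 2. Those of noah-1, noah-2, mlt-11 and qua-1 ranked 441 or better in both. NOAH-1 and NOAH-2 are zona pellucida domain proteins of the epidermal apical matrix, and MLT-11 carries Kunitz-type protease inhibitor domains. The other 17 had none, and the median best pooled rank of the 21 genes with a region was 6921, close to the 7366.5 of all genes.

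**Figure D3:**
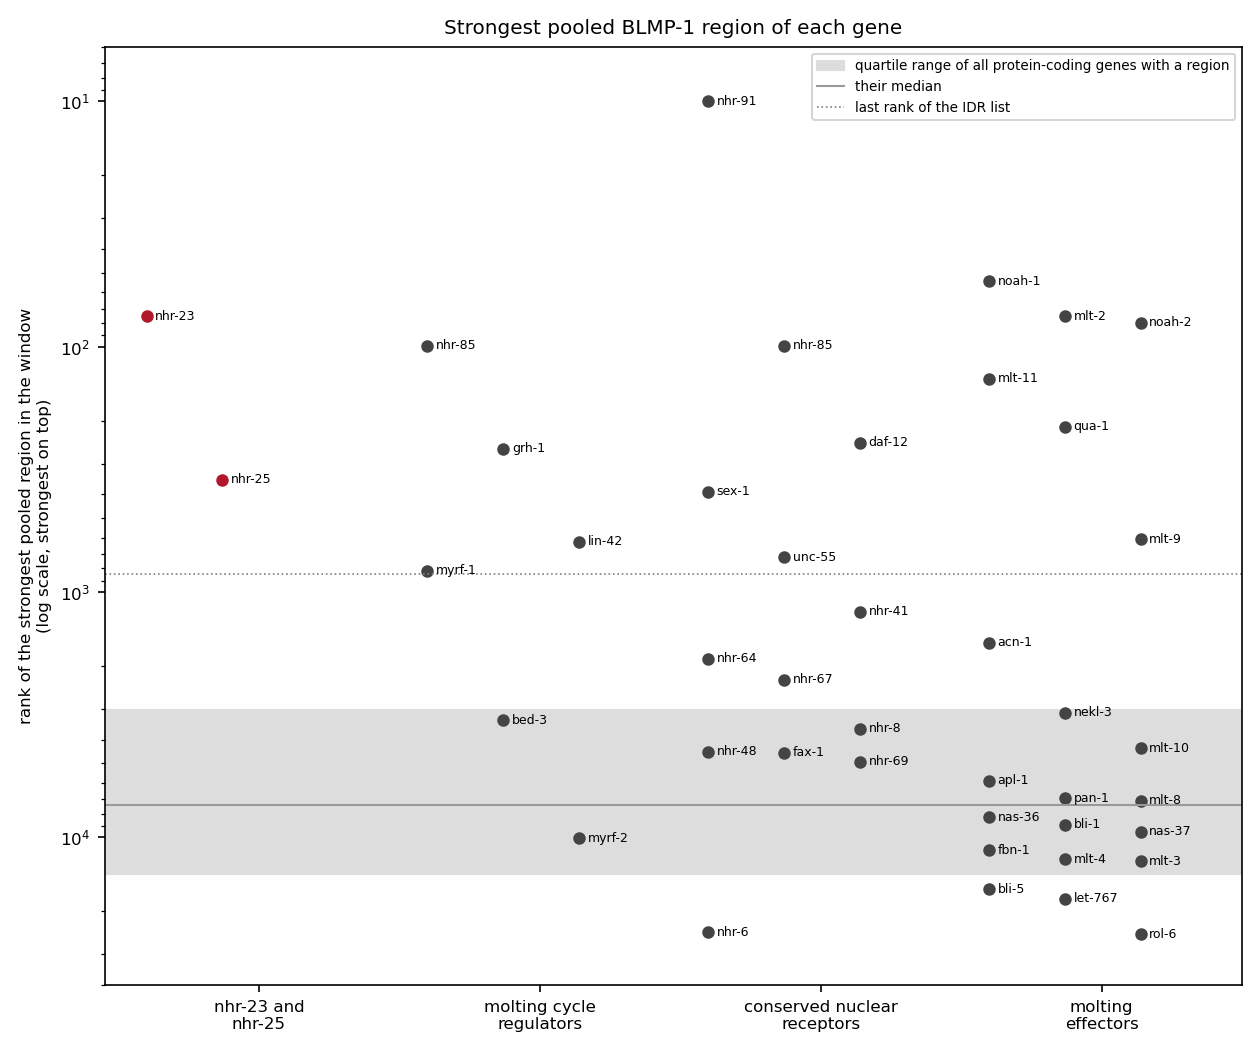
Rank of the strongest pooled region in the window of each gene (y axis, log scale, strongest on top) for nhr-23 and nhr-25 (red) and the 3 gene lists (dark), with the last IDR rank of 843 dotted, and in grey the range between the quartiles, 3038.5 to 14113.5, of all protein-coding genes that have a region, around their median of 7366.5. nhr-23 at 75 and nhr-25 at 348 lie above the dotted line with 4 of the regulators, 5 of the other receptors and 6 of the effectors; nhr-85 is in both of the first lists, and blmp-1, lrp-1 and nekl-2 have no pooled region and are not drawn.

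Likeness was measured over 3 lists, as the summed difference in log10 rank of the strongest region of a gene in the pooled, replicate 1 and replicate 2 lists, across 13094 genes with a region in each. For nhr-23 the most similar genes were C01H6.3, C01H6.4 and mlt-2, at a difference of 0, because they share its peak. Without such genes, a choice made after the values were seen, amx-1 and dpy-27, which share their best regions, stood at 0.147 with ranks 81, 132 and 46, and che-14 at 0.191. For nhr-25 they were F55D1.1, bus-8A and bus-8B, also on chromosome X, at 0.181. These share their best regions, of ranks 336, 249 and 270. The ranks of nhr-25 used here, 348, 182 and 289, are not of 1 site. The first 2 are of the peak at 13009042, which ranked 15512 in replicate 2, and the last is of the peak at 13009837.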

How the data were processed

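The deposited peak lists of build ce11 were read as narrowPeak text: the authors' IDR list, the pooled list and 1 candidate list for each replicate. The aligner, peak caller and IDR threshold are not given in the sources used here, and the ce10 lists, signal tracks and control were not used here. The strength column is the authors' signal value, deposited as a score of unstated scale. The deposited −log10 q column was used in 1 alternative and to describe the weaker pooled regions. Summits were placed by the deposited offset in bp. Positions are 1-based on WBcel235, with Ensembl release 115 genes, and none was converted between builds. A gene's window ran from 5000 bp upstream of its start to its end. Regions matched when they overlapped by at least 1 bp, and the strongest match was taken. Sequences were searched within 50 bp of the summit. Named genes are both members, all regulators and receptors of the lists, the effectors with an IDR summit, neighbours with a start in or next to a window, and the 3 genes of most similar ranks. The members and lists were chosen with earlier results of these data known. Scripts ran in Python 3.11.15 with numpy 2.4.6 and were checked on planted regions. Alternatives covered the window, the overlap, the ranking, single replicates, and the search width. The depth is unknown, so no interval was given.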

Additional observations from a re-analysis of the deposited data

How the results depend on the processing

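Of 79 alternative values, 57 kept their count within 1.5 times, their rank within the SD of the 2 replicates or their share within its binomial interval, and 22 did not. The single-replicate ranks are the same 2 ranks that set this SD, so they are no separate check of it. At nhr-25 these 2 ranks belong to different sites, so there the SD is not the spread of a region. The binomial interval takes genes as independent, although neighbouring windows can share a peak, so it may be too narrow. No paired analysis was possible because the 2 samples form 1 group. With a window of 2000 bp upstream, nhr-23 had 0 IDR summits and a best pooled rank of 925, since its peak lies further out, and 4.24% of protein-coding genes had an IDR summit. With 10000 bp upstream the best pooled rank of nhr-25 was 103, with 3 IDR summits, and 9.60% of genes had one. Among genes with windows at least as long as that of nhr-25, 11.1% had one. With the 422 strongest IDR peaks alone, nhr-25 had 1 summit and the molting cycle regulators 2 genes. Ranked by q, both genes stood at 1, tied with all 789 pooled regions at the highest q. Among nuclear regions only, the best pooled rank was 55 for nhr-23 and 323 for nhr-25. For single replicates the count was of regions among the 843 strongest of that replicate's list, not of IDR summits. It was 1 to 2 for nhr-23 and 1 to 2 for nhr-25. The best rank in a single replicate was 48 to 106 for nhr-23 and 182 to 289 for nhr-25. Regions in both replicates numbered 2 at nhr-23 and 4 at nhr-25 with a reciprocal overlap of 50% or with summits within 100 bp. The 7-letter core was at 1 region of nhr-23, and the GA repeat at 4 within 100 or 150 bp. Of the 20 values for candidate counts and likeness, 2 moved: the pooled count of nhr-25, 7 with 2000 bp, and the likeness of nhr-23. The unknown depth limits what a low rank or a missing match can show.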
